A study of Ovis aries with 8 samples.

Results

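Proteasome genes were followed in pancreatic islets of fetal sheep. Of the 25000 gene rows deposited for this series, 44 carry a symbol that starts with PSMA, PSMB, PSMC, PSMD, PSME, PSMF or PSMG and a digit. None of the symbols was listed more than once. The 5 inducible members (PSMB8, PSMB9, PSMB10, PSME1 and PSME2) were set against the other 39, which are called constitutive here. One of the 39, PSMC3IP, matches only by its letters: it encodes a partner of the ATPase PSMC3 known from meiotic recombination and is no subunit. PSMA1, PSMB6, PSMB11, PSMC6 and PSMD9 were not analysed here.

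All fetuses were near-term singletons of Columbia-Rambouillet crossbred ewes. The 4 fetuses of the norepinephrine group were infused with it intravenously for 7 days. The rate was 1 µg/min on day 1, rose to 2 µg/min for days 2 to 4 and was 4 µg/min from day 5. The 4 control fetuses were given the diluent alone, saline at 0.9% with ascorbic acid at 0.3%. Islets were picked by hand, and RNA was measured as FPKM, which counts fragments relative to transcript length and library size. Gestational age ran from 139 to 140 days in controls and from 137 to 139 days with norepinephrine, and 1 fetus in each group was female. Fetal weight ran from 3.6 to 5 kg in controls and from 2.8 to 3.7 kg with norepinephrine. The hand-picked tissue is a mixture of cells, so fewer cells of a type and less RNA per cell cannot be told apart.

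The proteasome is the large protease that degrades proteins marked with ubiquitin. Its 20S core is a barrel of stacked rings, the outer ones of alpha subunits and the inner ones of beta subunits, of which PSMB5, PSMB6 and PSMB7 cut peptides. A 19S cap on the barrel binds ubiquitin chains, removes them and threads the protein inward with a ring of ATPases. Interferon induces PSMB8, PSMB9 and PSMB10, which take the places of PSMB5, PSMB6 and PSMB7 in new cores and so form the immunoproteasome, known for making peptides for class I antigen presentation. PSME1 and PSME2 form the interferon-inducible activator PA28, which opens the core without ubiquitin. In beta cells, which make very large amounts of hormone precursor, the proteasome also clears proteins that fail to fold in the endoplasmic reticulum.

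Members that are built into the complex in equal numbers were far apart in transcript level. Mean FPKM over the 8 animals, a value per transcript length, ran from 0.532 for PSMA8 to 499 for PSMB4, with a median of 116 over the 44 members and of 15.7 over the 13252 genes with a mean of at least 1 FPKM. After PSMB4, a beta subunit of the core, came PSME1 at 459, PSMA7 at 418, PSMB7 at 301 and PSMG4, a chaperone of core assembly, at 289. Among the tested alpha subunits PSMA7 was highest and PSMA4 lowest at 26.97, and among the constitutive beta subunits PSMB5 was lowest at 46.6. The ATPases of the cap lay between 51.5 for PSMC3 and 238 for PSMC5, and the lid subunits between 35.2 for PSMD14 and 216 for PSMD7. PSMA8, the alpha subunit of the testis, was the only member under a mean of 1 FPKM and was not tested, at 0.541, 0.762, 0.277 and 0.399 FPKM in controls 1 to 4 and 0.4999, 0.161, 0.596 and 1.02 in norepinephrine animals 1 to 4. These levels rest on the transcript models used to count, and 11 members share their listed locus with another gene, among them PSMA2, PSMA7, PSMB7, PSMB9, PSMC3, PSMD8 and PSME1. Strand was not stated, so reads from such a neighbour cannot be told apart, and the levels of these members are uncertain.

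**Figure D1:**
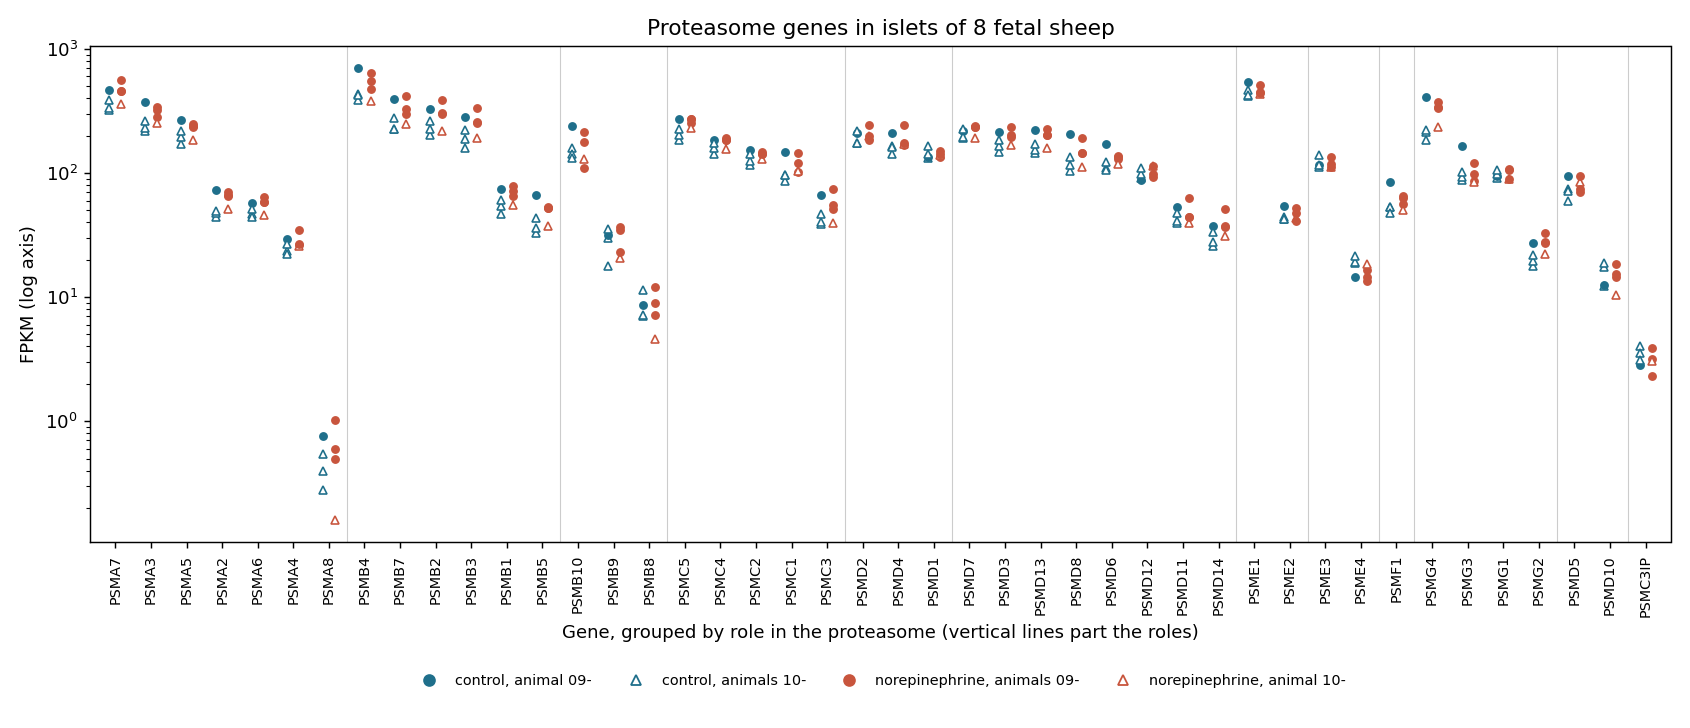
FPKM (log axis) of the 44 proteasome genes in each animal, grouped by role, with controls in blue and norepinephrine animals in red. Circles are animals numbered 09 and triangles animals numbered 10. The mean level runs from 0.532 FPKM for PSMA8 to 499 for PSMB4, and in most core subunits the circles lie above the triangles whatever the group.

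Libraries stood apart by animal number. Control 2 and norepinephrine animals 1, 3 and 4 carry numbers that begin with 09, and controls 1, 3 and 4 and norepinephrine animal 2 carry numbers that begin with 10. What the digits stand for is not stated in the labels. Summed FPKM was 981583 to 1112624 in the 09 animals and 768021 to 796149 in the 10 animals. Results on the members are therefore given with the prefix beside them, and also with all libraries scaled to the same total, which moved the median log2 difference of all genes by -0.14 between treatments and by 0.40 between number groups. Of 8 islet markers 7 were listed and all 7 were tested, led by CHGA, the granule protein chromogranin A, at 3891 ± 1555 FPKM in control and 4853 ± 829.7 in infused animals (mean ± SD, n = 4 each, as for all list genes below), and INS was not analysed here. GCG, glucagon, stood at 1348 ± 753 FPKM in control and 2073 ± 1497 in infused animals, and SST, somatostatin, with the lowest p of the islet list, at 393 ± 369 FPKM in control and 1142 ± 717 in infused animals. SST was the only 1 of the 7 islet markers with an unadjusted p under 0.05 by limma, on the higher side (3.61% of all genes).

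The main comparison asked whether proteasome transcripts differed between the islets of the 2 groups, and no member passed. By limma on log2(FPKM + 1), 0 of the 43 tested members had an adjusted p under 0.05 (0.00% of all 13252 genes did), and 0 had an unadjusted p under 0.05, against 7.36% of all genes. The groups overlapped in all 43 members, whereas they did not in 4.23% of all genes. On the deposited scale 33 members had a higher mean with norepinephrine and the median log2 difference (norepinephrine minus control, here and below) was 0.11, beside 52.6% higher and a median of 0.017 over all genes; with equal library totals 17 were higher and the median was -0.040, beside -0.12 over all genes. The median of the members thus lay 0.096 above that of all genes on the first scale and 0.084 above it on the second.

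Among animals numbered 09, 14 of the 43 members were higher with norepinephrine (median -0.049, 3 animals against control 2), and among those numbered 10, 22 were (median 0.0028, norepinephrine animal 2 against 3 controls). With the prefix in the model 17 were higher and the median was -0.034, beside 47.2% higher and -0.018 over all genes. With prefix and equal library totals together 26 were higher and the median was 0.037, beside 57.4% and 0.046. With the prefix alone 1 member, PSMG3, had an unadjusted p under 0.05, on the lower side (7.14% of all genes did so), as it did with equal library totals (6.11%). The lower and upper ends of the 95% intervals of the members reached from -0.69 for PSMB8 to 0.94 for PSMG4, with a median half-width of 0.38. Without control 2, the only control numbered 09, 8 members had an unadjusted p under 0.05, 7 higher (PSMA2, PSMA3, PSMA7, PSMC1, PSMC5, PSMG2 and PSMG4) and 1 lower (PSME4), beside 9.88% and 6.73% of all genes, and 0 passed after adjustment. With gestational age in the model the median of the members was -0.13 and 6 were higher, beside -0.044 and 45.1% higher over all genes, and 3 had an unadjusted p under 0.05 (7.91% of all genes). The groups share only day 139, so the parts of age and treatment cannot be told apart.

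**Figure D2:**
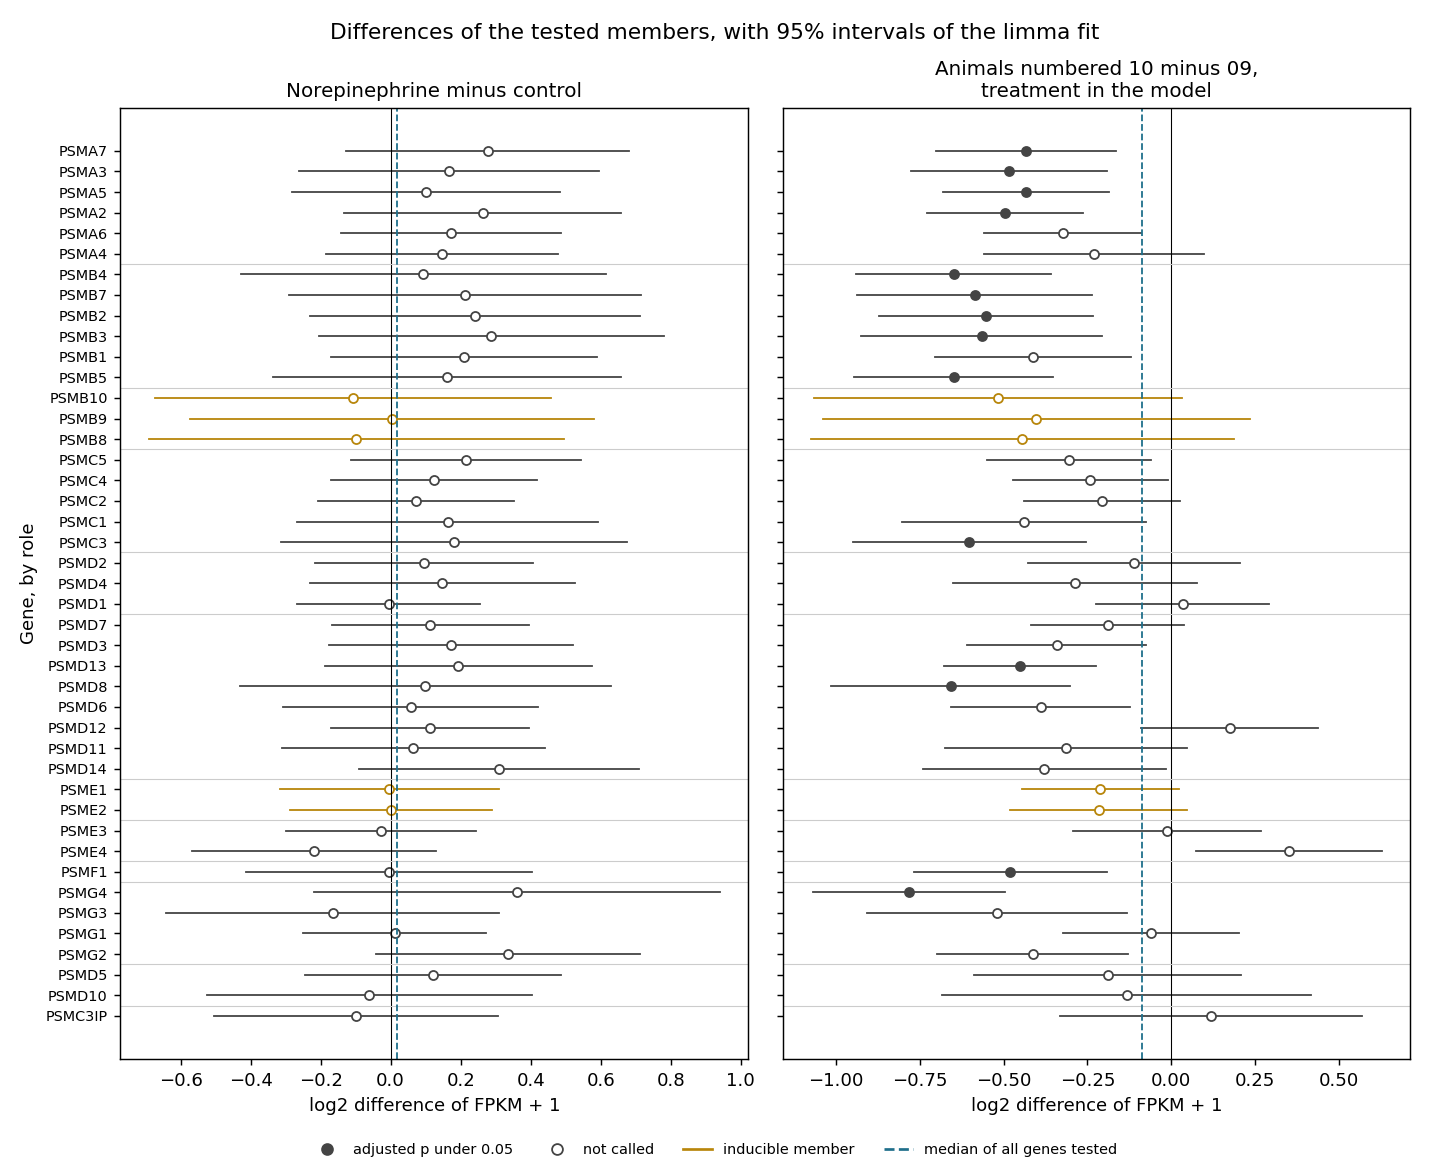
Log2 difference of FPKM + 1 (x axis) of the 43 tested members by role (y axis), norepinephrine minus control on the left and animals numbered 10 minus 09 with treatment in the model on the right. Points are limma estimates with 95% intervals, filled where the adjusted p is under 0.05 (0 on the left, 14 on the right), inducible members are in ochre, and the dashed line is the median of all genes tested.

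The alpha ring gates the entrance of the core. All 6 tested alpha genes had higher means with norepinephrine on the deposited scale, between 0.10 and 0.28, and 4 of 6 did with equal library totals, as 4 of 6 did once the prefix was modelled. PSMA7, the most abundant of them (coordinates here and below are in the build Oar_v3.1; chromosome 13, 54363499 to 54376906), stood at 321, 467, 336 and 386 FPKM in controls 1 to 4 and 458, 360.1, 455 and 558 in norepinephrine animals 1 to 4 (log2 0.28, SE 0.18, limma adjusted p = 0.752). Norepinephrine animal 4 was highest and controls 1 and 3 were lowest, while control 2 stood above 3 of the 4 infused animals. PSMA3 stood at 218, 372, 231 and 263 FPKM in controls 1 to 4 and 281, 253, 342 and 323 in norepinephrine animals 1 to 4. There the highest value belonged to a control, number 2, and the infused animal numbered 10 lay among the other controls. PSMA2 stood at 43.97, 72.5, 47.9 and 49.1 FPKM in controls 1 to 4 and 66.2, 51.7, 64.97 and 70.9 in norepinephrine animals 1 to 4, again with control 2 on top.

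The constitutive beta ring holds the cutting sites. All 6 of its listed members had higher means with norepinephrine, with a median of 0.21, 5 of 6 did with equal library totals (median 0.058), and 2 of 6 did once the prefix was modelled (median -0.058). PSMB4, a subunit that cuts no peptides (chromosome 1, 100246814 to 100248983), stood at 388, 695, 429 and 426 FPKM in controls 1 to 4 and 552, 377, 477 and 644 in norepinephrine animals 1 to 4. PSMB5, the subunit that cuts after hydrophobic residues and the main target of proteasome inhibitors (chromosome 7, 21444915 to 21454649), was at 33.1, 66.1, 35.99 and 43.1 FPKM in controls 1 to 4 and 51.8, 37.2, 52.9 and 52.6 in norepinephrine animals 1 to 4. PSMB7, which cuts after basic residues (chromosome 3, 11365726 to 11465075), was at 226, 392, 226 and 276 FPKM in controls 1 to 4 and 297, 246, 326 and 419 in norepinephrine animals 1 to 4. In these genes all animals numbered 09, control 2 included, stood above all animals numbered 10. PSMB3, one of the 6 members with the largest difference, stood at 159, 284, 188 and 223 FPKM in controls 1 to 4 and 259.9, 192, 252 and 336 in norepinephrine animals 1 to 4 (log2 0.29, SE 0.22), and it showed the same split by number.

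The base of the cap is a ring of ATPases with large scaffold and receptor subunits. Its 5 listed ATPases differed by 0.073 to 0.22, all on the higher side, with 2 of 5 higher once the prefix was in the model and 3 of 5 with equal library totals. PSMC5 stood at 186, 272, 202 and 227 FPKM in controls 1 to 4 and 252, 229, 270.1 and 270.3 in norepinephrine animals 1 to 4. PSMC4 stood at 142, 186, 158 and 176 FPKM in controls 1 to 4 and 186, 157, 183 and 193 in norepinephrine animals 1 to 4, with all 09 animals between 183 and 193 FPKM. Among the other base subunits PSMD2, a scaffold, was at 175, 208, 173 and 217 FPKM in controls 1 to 4 and 185, 199, 199 and 244 in norepinephrine animals 1 to 4, and PSMD4, a receptor for ubiquitin chains, at 166, 209.9, 143 and 162 FPKM in controls 1 to 4 and 167, 172, 174 and 242 in norepinephrine animals 1 to 4. For PSMD2 the groups and the number groups overlapped, and for PSMD4 norepinephrine animal 4 stood apart from the other 3 infused animals.

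The lid carries the enzyme that removes ubiquitin from the substrate. All 8 lid genes had higher means with norepinephrine on the deposited scale (median 0.11), 3 of 8 did with equal library totals (median -0.041) and 4 of 8 once the prefix was modelled. PSMD14, that deubiquitinating enzyme (chromosome 2, 147227384 to 147314049), had the largest lid difference, at 25.8, 37.6, 28.04 and 33.3 FPKM in controls 1 to 4 and 36.5, 31.3, 37.6 and 51.04 in norepinephrine animals 1 to 4 (log2 0.31, SE 0.18, limma adjusted p = 0.715). It was 1 of 4 members, with PSMA7, PSMD12 and PSMG2, whose difference was above 0 inside both number groups, at 0.13 in 09 and 0.11 in 10. PSMD7, its partner in the lid, stood at 192, 216, 194 and 226 FPKM in controls 1 to 4 and 233, 192, 237 and 235 in norepinephrine animals 1 to 4, and PSMD3 at 148, 214, 164 and 185 FPKM in controls 1 to 4 and 196, 169, 201 and 233 in norepinephrine animals 1 to 4. For both genes norepinephrine animal 2 was the lowest of the infused animals. Controls 2 and 4 stood above it for PSMD3, and all controls did for PSMD7 (191.6 FPKM, beside 192.4 in control 1).

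The 2 largest differences belonged to chaperones of core assembly. PSMG1 to PSMG4 pair up to build the alpha ring and are no part of the finished core. PSMG4 (an unplaced scaffold, 12035 to 16070) stood at 215, 409.7, 222 and 185 FPKM in controls 1 to 4 and 332, 233, 343 and 372 in norepinephrine animals 1 to 4, the largest difference of any member (log2 0.36, SE 0.26, limma adjusted p = 0.773). Its control 2 value was above all other animals, and the treatment groups differed by -0.23 within 09 and by 0.17 within 10. PSMG2, which gave the lowest unadjusted p of all members (0.0760; adjusted p = 0.681 by limma), stood at 17.7, 27.2, 19.6 and 22.03 FPKM in controls 1 to 4 and 27.4, 22.2, 27.7 and 32.7 in norepinephrine animals 1 to 4 (log2 0.33, SE 0.17), with 0.095 in 09 and 0.16 in 10. PSMG3 went the other way, at 87.4, 164, 93.4 and 102 FPKM in controls 1 to 4 and 85.8, 84.7, 97.9 and 121 in norepinephrine animals 1 to 4, with control 2 far above the other animals (log2 -0.17; -0.43 with the prefix modelled and -0.32 with equal totals). Of the chaperones of the cap, PSMD5 stood at 59.4, 94.9, 74.8 and 71.1 FPKM in controls 1 to 4 and 70.8, 84.6, 94.4 and 74.5 in norepinephrine animals 1 to 4 and PSMD10 at 12.2, 12.6, 17.4 and 18.8 FPKM in controls 1 to 4 and 14.5, 10.3, 18.3 and 15.2 in norepinephrine animals 1 to 4, both without order by group or number.

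Activators and regulators outside the inducible set passed no test between treatments. PSME3, the nuclear activator PA28 gamma, stood at 112, 116, 117 and 139.9 FPKM in controls 1 to 4 and 118, 112, 134 and 112 in norepinephrine animals 1 to 4, and PSME4, the single-chain activator PA200 of the nucleus, at 18.9, 14.6, 19.02 and 21.6 FPKM in controls 1 to 4 and 16.5, 18.3, 14.6 and 13.4 in norepinephrine animals 1 to 4. For PSME4 the infused animals numbered 09 were low and so was control 2, and norepinephrine animal 2 lay with the controls numbered 10 (log2 -0.22 for the groups, 0.016 within 09 and -0.10 within 10). PSMF1, the regulator PI31, stood at 53.6, 83.9, 53.6 and 47.9 FPKM in controls 1 to 4 and 55.97, 50.4, 62.4 and 64.7 in norepinephrine animals 1 to 4, with control 2 above the rest. PSMC3IP, which is no subunit, was at 4.05, 2.83, 3.56 and 3.10 FPKM in controls 1 to 4 and 3.19, 3.04, 2.32 and 3.90 in norepinephrine animals 1 to 4.

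No inducible member differed between treatments beyond the spread of animals. Their median log2 difference was -0.0032, with 2 of 5 higher, beside 0.13 over the 38 tested constitutive members, with 31 higher; with equal library totals the medians were -0.16 and -0.018, and with prefix modelled -0.20 and -0.031. On each of those last 2 scales 0 of the 5 were higher and 17 of the 38 were. With prefix and equal library totals together the medians were -0.13 and 0.041, with 0 of the 5 and 26 of the 38 higher. With gestational age in the model the medians were -0.12 for the inducible and -0.13 for the constitutive members, so the inducible ones were then not lower. The lowest unadjusted p among the 5 was 0.681 by limma (PSMB10), and the difference between the medians was not tested.

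PSMB10, the most abundant inducible catalytic subunit (chromosome 14, 34756915 to 34759313), stood at 158, 239, 143 and 133 FPKM in controls 1 to 4 and 214, 129, 177 and 109 in norepinephrine animals 1 to 4. Norepinephrine animal 4 was lowest of all 8 and control 2 highest, so the 09 animals held both ends of the range. PSMB9 (chromosome 20, 7281659 to 7296754) stood at 29.9, 31.6, 35.5 and 17.7 FPKM in controls 1 to 4 and 34.7, 20.5, 36.7 and 23.04 in norepinephrine animals 1 to 4, and the groups covered nearly the same range. PSMB8 (chromosome 20, 7273093 to 7280060), the least abundant of the 3, stood at 7.06, 8.56, 11.4 and 7.14 FPKM in controls 1 to 4 and 8.96, 4.63, 7.13 and 12.01 in norepinephrine animals 1 to 4, with both the highest and the lowest value in the infused group. Norepinephrine animal 4, lowest for PSMB10, was highest for PSMB8, so the inducible catalytic genes did not follow 1 order over the animals. The log2 ratio of FPKM + 1 between PSMB10 and PSMB8 had an SD of 0.55 over the 8 animals, second highest of the 903 pairs of members.

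PSMB8 and PSMB9 lie side by side on chromosome 20, and the file gives PSMB9 the same locus as TAP1, the peptide transporter of the class I pathway. TAP1, named here after its values were seen, stood at 35.9, 27.6, 41.3 and 23.8 FPKM in controls 1 to 4 and 32.98, 17.4, 26.99 and 28.3 in norepinephrine animals 1 to 4. Control 3 was highest and norepinephrine animal 2 lowest, while for PSMB9 norepinephrine animal 3 was highest and control 4 lowest, and the groups overlapped for both.

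PSME1 and PSME2, which encode the chains of PA28 and lie next to each other on chromosome 7 (20630230 to 20635243 and 20624296 to 20630146), varied least among the inducible genes. PSME1 stood at 416, 539, 466 and 422 FPKM in controls 1 to 4 and 509.7, 431, 452 and 440.0 in norepinephrine animals 1 to 4. PSME2 stood at 42.6, 54.7, 43.8 and 42.8 FPKM in controls 1 to 4 and 51.7, 43.5, 47.2 and 41.3 in norepinephrine animals 1 to 4. The FPKM of PSME1 was 9.57 to 10.6 times that of PSME2 in every animal. Their log2 differences were -0.0032 and 0.0015 (SE 0.14 and 0.13), the 2 smallest in size of any member.

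The exchange of constitutive for inducible subunits was read as a ratio within each animal, which does not depend on how libraries are scaled beyond the pseudocount. The log2 ratio of PSMB8 to PSMB5 was -2.08, -2.81, -1.58 and -2.44 in controls 1 to 4 and -2.41, -2.76, -2.73 and -2.04 in norepinephrine animals 1 to 4. The groups overlapped widely, and the difference of -0.26 did not pass (exact two-sided permutation test, 4 against 4, p = 0.543). The log2 ratio of PSMB10 to PSMB7 was -0.51, -0.71, -0.66 and -1.05 in controls 1 to 4 and -0.47, -0.92, -0.88 and -1.93 in norepinephrine animals 1 to 4. Norepinephrine animal 4 was lowest and norepinephrine animal 1 highest, and the difference of -0.32 did not pass either (exact permutation p = 0.429). Adjusted over these 2 pairs both exact permutation p-values became 0.543, where 0.0286 is the smallest p this design allows before adjustment. The PSMB8 to PSMB5 ratio differed by 0.42 among animals numbered 09 and by -0.73 among those numbered 10, and the PSMB10 to PSMB7 ratio by -0.39 and -0.18. PSMB9 has PSMB6 as its partner, which was not analysed here, so the third pair gave no value. Without control 3 the PSMB8 to PSMB5 difference was -0.041, and without norepinephrine animal 4 the PSMB10 to PSMB7 difference was -0.025.

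**Figure D3:**
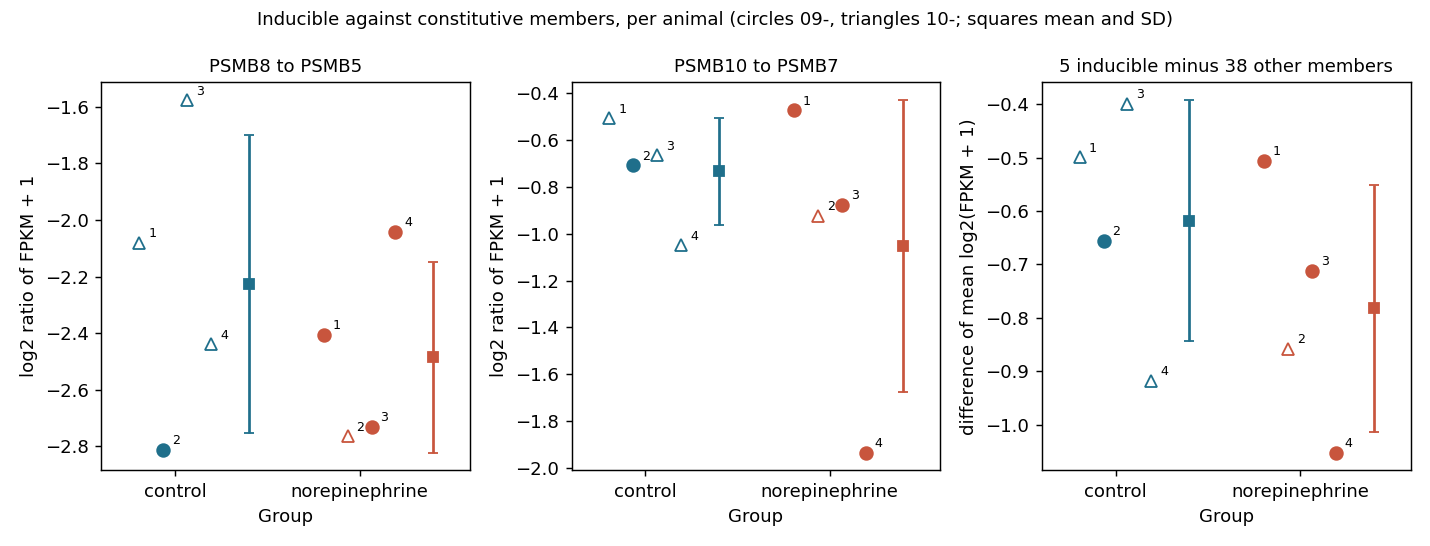
Log2 ratio of PSMB8 to PSMB5 and of PSMB10 to PSMB7, and the mean log2(FPKM + 1) of the 5 inducible members minus that of the 38 other tested members (y axes), per animal in both groups (x axis), with the animal's replicate number beside its point. Circles are animals numbered 09, triangles animals numbered 10, and squares with bars are means with SD over 4 animals; the groups overlap in each panel.

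Over all members, the mean log2 level of the inducible genes minus that of the constitutive ones was -0.40 (control 3) to -0.92 (control 4) in controls and -0.51 (norepinephrine animal 1) to -1.05 (norepinephrine animal 4) in infused animals. Summed FPKM of the 3 inducible catalytic genes was 158 to 279 in controls and 144 to 257 with norepinephrine.

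Genes known to drive or accompany the immunoproteasome, and markers of the blood cells in which it is abundant, were read beside it. Of 20 genes of interferon signalling and class I peptide loading 15 were tested. On the deposited scale 13 of the 15 had lower means with norepinephrine (median -0.21), and 0 had an unadjusted p under 0.05 (7.36% of all genes did). B2M, the light chain of class I molecules, stood at 4646 ± 1814 FPKM in control and 4546 ± 1011 in infused animals. JAK1, a kinase of interferon signalling, stood at 335 ± 30.8 FPKM in control and 295 ± 55.03 in infused animals. Of 14 leukocyte markers 12 were listed and 9 were tested, while CD2, CD79A and CD79B, markers of T and B cells, had means under 1 FPKM. Of the 9, 5 were higher and 1, CD74, had an unadjusted p under 0.05, on the higher side (3.61% of all genes). The summed FPKM of the listed leukocyte markers was 189.8 to 254 in controls and 199 to 329.8 with norepinephrine. CD14, of monocytes, and LAPTM5, of leukocyte lysosomes, led them, at 69.8 ± 20.1 FPKM in control and 79.4 ± 26.8 in infused animals and at 45.4 ± 11.6 FPKM in control and 57.02 ± 35.2 in infused animals, and CD74, the class II invariant chain, had the lowest p, at 28.3 ± 3.48 FPKM in control and 45.7 ± 16.1 in infused animals (difference in log2 0.62; adjusted p = 0.597 by limma). Of 8 endothelial markers 7 were tested, 1 was higher and 0 had an unadjusted p under 0.05, with a summed FPKM of 148 to 209.9 and 116 to 205. CDH5, the cadherin of endothelial junctions, stood at 47.9 ± 9.64 FPKM in control and 38.2 ± 20.2 in infused animals, the sialomucin EMCN at 41.5 ± 9.73 FPKM in control and 43.1 ± 5.03 in infused animals, and KDR, the VEGF receptor, with the lowest p, at 27.02 ± 5.02 FPKM in control and 20.2 ± 4.11 in infused animals. Of 12 acinar genes 8 were listed and 7 tested, all 7 higher with norepinephrine, and their sum was 114 to 155 and 132 to 955. Of these 7, 2 had an unadjusted p under 0.05 (3.61% of all genes did so on the higher side) and 0 passed after adjustment. CPA1 stood at 63 ± 12.2 FPKM in control and 211 ± 187 in infused animals. CPB1 stood at 21.7 ± 11.5 FPKM in control and 94.99 ± 41.96 in infused animals (difference in log2 2.08, adjusted p = 0.352 by limma). For CPB1 every infused animal was above every control, and the treatment groups did not overlap in 4.23% of all genes. Both genes encode pancreatic carboxypeptidases. With the prefix modelled the list medians were -0.089 (interferon, 6 of 15 higher), -0.16 (leukocyte, 3 of 9), -0.44 (endothelium, 1 of 7) and 0.54 (acinar, 6 of 7). With equal library totals they were -0.36 (0 of 15), -0.13 (3 of 9), -0.37 (0 of 7) and 1.10 (7 of 7). With the prefix modelled 3 interferon, 1 leukocyte and 1 endothelial gene were lower at an unadjusted p under 0.05 by limma (7.14% of all genes). With equal totals 2, 1 and 0 were (6.11%). In both settings 0 genes of these 3 lists were higher at that p, and 0 passed after adjustment. The part of these other cells in the proteasome values was not tested.

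On the deposited scale, many constitutive genes were lower in animals numbered 10, and with equal library totals none of them was lower and some were higher after adjustment. This comparison was chosen after the data were seen. With treatment in the model, 14 of 43 members (32.6%) were lower in animals numbered 10 by limma at an adjusted p under 0.05, beside 10.4% of all genes, and 0 were higher, beside 6.06%. The median log2 difference, 10 minus 09, was -0.39 for the members and -0.088 for all genes. In 22 members (51.2%) every 09 animal stood above every 10 animal, beside 14.8% of all genes, and in 1, PSME4, every 09 animal stood below, beside 10.6%. Control 2 and norepinephrine animal 4 were each the highest animal in 17 members, and control 1 was the lowest in 22.

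The 14 genes came mainly from the core. They were 5 of 6 constitutive beta genes (PSMB2, PSMB3, PSMB4, PSMB5 and PSMB7), 4 of 6 alpha genes (PSMA2, PSMA3, PSMA5 and PSMA7), 2 of 8 lid genes (PSMD8 and PSMD13), 1 of 5 ATPases (PSMC3), the chaperone PSMG4 and the regulator PSMF1. On the deposited scale PSMG4 stood at 364 ± 34.9 FPKM in the 09 animals and 214 ± 20.6 in the 10 animals (SD, n = 4 each), which is -0.78 in log2 (SE 0.12; adjusted p = 0.0126 by limma). PSMB4 stood at 592 ± 96.7 in 09 and 405 ± 26.3 (limma adjusted p = 0.0181) and PSMB5 at 55.8 ± 6.87 and 37.4 ± 4.22 (limma adjusted p = 0.0193). PSMA2 stood at 68.6 ± 3.61 and 48.2 ± 3.22 (limma adjusted p = 0.0210). PSMD8, a small lid subunit, stood at 172 ± 32.3 and 117 ± 12.99, and PSMD13, another lid subunit, at 213 ± 12.5 and 157 ± 10.5.

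A further 8 members (PSMA6, PSMB1, PSMC4, PSMC5, PSMD3, PSMD6, PSMD14 and PSMG2) also had every 09 animal above every 10 animal without passing after adjustment. Others lay closer together. PSMD1, the large scaffold of the base, stood at 141 ± 7.66 FPKM in 09 and 144 ± 14.7 in 10 animals, PSMD12 of the lid at 98.1 ± 11.5 and 103 ± 10.5, PSME3 at 119.6 ± 9.60 and 120.2 ± 13.3, and PSMG1 at 99.5 ± 8.78 and 95.9 ± 7.24. PSME4 stood at 14.8 ± 1.27 and 19.4 ± 1.44, with a log2 difference of 0.35 that missed the threshold (limma adjusted p = 0.0807). The inducible genes had differences of -0.52 to -0.21 with a median of -0.40, beside -0.38 for the constitutive members, and 0 of 5 passed. PSMB10 stood at 185 ± 56.6 in the 09 and 141 ± 12.97 in the 10 animals, and the number groups overlapped for each of the 5.

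**Figure D4:**
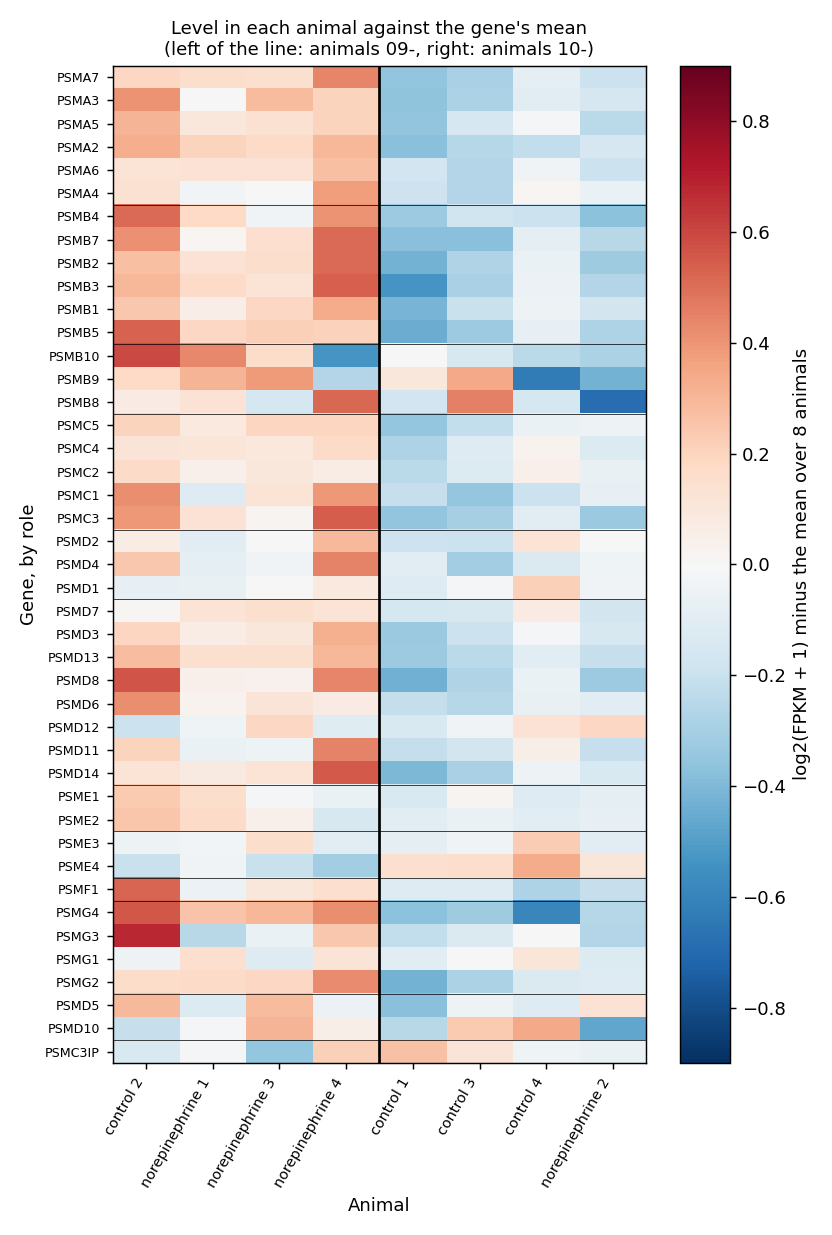
Log2(FPKM + 1) of the 43 tested members (y axis, by role) in each animal (x axis) minus the gene's mean over the 8 animals, red above and blue below it. Animals numbered 09 are left of the line and animals numbered 10 right of it; most core genes change colour at the line in both treatment groups, while the inducible catalytic genes, PSMD12 and PSMD10 do not.

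The direction of this split rests on how libraries are scaled. With equal library totals the median of all genes was 0.31 and that of the members 0.060, 0 members were lower in animals numbered 10 (beside 1.79% of all genes) and 5 were higher (beside 31.0%). These 5 were PSMD1, PSMD12, PSME3, PSME4 and PSMG1, with differences of -0.061 (PSMG1) to 0.35 (PSME4) on the deposited scale. On equal totals PSME4 differed by 0.78 (limma adjusted p = 0.00609) and PSMD12 by 0.62 (limma adjusted p = 0.00793), while PSMB4 differed by -0.20 and PSMG4 by -0.33. Every 09 animal then stood above every 10 animal in 1 member, PSMG4 (2.14% of all genes), and below in 10 (34.0%). The members' median minus that of all genes was -0.30 on the deposited scale and -0.25 on equal totals, and on both the core beta genes were the lowest role with more than 1 member and PA200 the highest member. Across the 43 members, which share the same libraries, the difference had a Pearson r of -0.35 with the mean log2 level, and across all 13252 genes of -0.23.

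Age, weight and sex went with the number. Gestational age was 137 to 139 days in the 09 animals and 139 to 140 days in the 10 animals, and fetal weight 2.8 to 3.6 kg and 3.7 to 5 kg. Both female fetuses, control 2 and norepinephrine animal 3, were numbered 09, and all animals numbered 10 were male. The part of age, weight, sex and the meaning of the number was not tested. Leaving out control 2 took the count of members lower in animals numbered 10 from 14 (10.4% of all genes were lower) to 0. Leaving out control 1, 3 or 4 took it to 4, 3 or 8, beside 4.65%, 4.39% or 5.74% of all genes. Leaving out norepinephrine animal 2 or 3 took it to 5 or 8, beside 4.02% or 8.75% of all genes. Without control 2 the count over all genes went from 1384 to 7 (0.0528%), although 40 members were still below 0 with a median of -0.31. With gestational age in the model the count was 0 (1 among all genes, 0.00755%) and the median -0.30.

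Ratios between members ranged from steady to loose over the animals. Over the 903 pairs of tested members, the SD of the log2 ratio over the 8 animals had a median of 0.23 and ran from 0.044 to 0.65. The tightest pair was PSMA7 with PSMG2 (0.044), a core subunit and a chaperone of its ring. PSMB1 with PSMD3 (0.051) and PSMB2 with PSMB3 (0.054), a pair inside the beta ring, came next, followed by PSME1 with PSME2 (0.055) and PSMC2 with PSMC4 (0.058), both ATPases. At the loose end stood PSME4 with PSMG4 (0.65), followed by PSMB10 with PSMB8, and 4 of the 5 loosest pairs held PSME4. These pairs were picked by their spread and carry no test.

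Genes that work with the proteasome under other symbols gave no call between treatments. Of 13 symbols of partners 11 were tested, with a median of 0.13, 9 higher and 1 at an unadjusted p under 0.05 on the higher side (3.61% of all genes). That gene, TXNL1, a thioredoxin bound to the cap, stood at 153 ± 12.3 FPKM in control and 189.7 ± 18.6 in infused animals, and POMP, a chaperone of beta ring assembly, at 141 ± 46.97 FPKM in control and 158 ± 39.8 in infused animals. POMP was lower in animals numbered 10 (log2 -0.76, limma adjusted p = 0.0167), 1 of 2 partners called lower on the deposited scale (10.4% of all genes). With equal library totals 0 partners were called lower (1.79%) and 3 higher (31.0%). Of 17 symbols for ubiquitin and its shuttles 15 were tested, with a median of -0.019 and 7 higher. With the prefix modelled 5 of 11 partners (median -0.055) and 8 of 15 ubiquitin genes (median 0.030) were higher, and with equal totals 5 (median -0.019) and 4 (median -0.17). UBB, which encodes a chain of ubiquitin units, stood at 3325 ± 1033 FPKM in control and 3194 ± 589.5 in infused animals, and DDI2, a protease that activates the factor NRF1, had the lowest p, at 16.3 ± 4.54 FPKM in control and 10.98 ± 2.53 in infused animals.

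The transcription factor NRF1, encoded by NFE2L1, raises proteasome genes when proteasome activity falls short. Of 10 such regulators 8 were tested, 5 were higher and 1, NFE2L1, had an unadjusted p under 0.05, on the lower side (3.74% of all genes), while 2 were higher with the prefix modelled and 3 with equal totals. NFE2L1 stood at 104, 94.7, 101.5 and 109 FPKM in controls 1 to 4 and 79.9, 90.5, 85.1 and 83.99 in norepinephrine animals 1 to 4. On the deposited scale every infused animal was below every control, and the treatment groups did not overlap in 4.23% of all genes. The difference of NFE2L1 did not pass over all genes (log2 -0.27, SE 0.10, limma adjusted p = 0.632). It was -0.20 with the prefix in the model and -0.42 with equal library totals, beside medians of -0.018 and -0.12 over all genes. With equal totals 0 of the 8 regulators had an unadjusted p under 0.05 by limma, and the NFE2L1 groups overlapped. NFE2L2, the related factor NRF2, stood at 76.3 ± 10.97 FPKM in control and 66.5 ± 4.51 in infused animals.

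Other ring- and lid-like complexes were set beside the proteasome for the split by number. The eIF3 translation factor, whose core is built like the lid, had 8 of 12 tested genes lower in animals numbered 10 on the deposited scale (median -0.50; 10.4% of all genes were lower), the COP9 signalosome, also built like the lid, 1 of 8 lower and 1 higher (median -0.24), and the CCT chaperonin, a protein-folding ring, 0 of 5 (median -0.24). With equal library totals eIF3 had 1 gene lower and 0 higher (median -0.047), COP9 had 0 lower and 3 higher (median 0.21) and CCT had 0 of either (median 0.21), beside 1.79% lower and 31.0% higher over all genes. EIF3K and EIF3H were the most abundant eIF3 genes, at 526 ± 145 FPKM in control and 667 ± 166 in infused animals and at 352 ± 81.97 FPKM in control and 416 ± 80.6 in infused animals, and EIF3A had the lowest p, at 69.9 ± 4.01 FPKM in control and 81.3 ± 7.36 in infused animals. COPS6 and COPS3 led the signalosome, at 219 ± 47.9 FPKM in control and 250.0 ± 40.5 in infused animals and at 146 ± 16.1 FPKM in control and 167 ± 13.8 in infused animals, and COPS4 had its lowest p, at 73.7 ± 3.54 FPKM in control and 88.9 ± 9.15 in infused animals. TCP1 and CCT7 led the chaperonin, at 369 ± 56.4 FPKM in control and 402 ± 54.3 in infused animals and at 319 ± 41.4 FPKM in control and 381 ± 50.5 in infused animals. The medians between treatments were 0.22, 0.11 and 0.13 on the deposited scale, -0.022, 0.021 and -0.010 with the prefix modelled, and 0.069, -0.037 and -0.028 with equal totals. On the deposited scale 1 gene, COPS4, had an unadjusted p under 0.05 on the higher side (3.61% of all genes), and 0 genes of the 3 complexes passed after adjustment. No test of the proteasome against these complexes was made.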

How the data were processed

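RNA of hand-picked islets of 8 fetuses was selected for mRNA, made into TruSeq libraries and read from both ends at 100 bp, per the labels' protocols. Per the submitters' processing notes, which give no roles, the tools were TopHat2 2.0.1, Cufflinks 2.1.1 and Cuffdiff and the build was Oar_v3.1. For strand, annotation and filters nothing is given in the sources. The authors deposited 1 FPKM value per gene and animal, with no counts, and 0 columns of other samples were present. Columns were matched to animals by animal number. Coordinates are those of the file, with the start raised by 1.

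Depth is known only in relative terms, from steps of 1 fragment in low genes. Against control 1 the most common ratio was 1.17 for control 3, 1.08 for control 4, 1.01 for norepinephrine animal 2 and 0.726 for norepinephrine animal 3. Norepinephrine animal 1 gave 1.3 and then 0.648, and control 2 and norepinephrine animal 4 gave no clear ratio, so no counting interval was computed.

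Values were tested as log2(FPKM + 1), which understates changes of low genes, in 13252 genes with a mean FPKM of at least 1, with limma 3.58.1 (intensity trend) in R 4.3.3, two-sided, Benjamini-Hochberg adjusted over all of them, threshold 0.05. The fit was tested on simulated data. Ratios were compared by exact permutation. Members, lists and tests were chosen with earlier results of these data known. Values per animal are given for the inducible genes, their catalytic partners, the 2 most abundant members of each role and the 6 largest differences; of the other lists, for the 2 most abundant genes and the gene with the lowest p, of which 2 are not reported here. The labels name separate fetuses. RefSeq names (ARS-UI_Ramb_v3.0) matched 44 of 44 members, and no sequences were used. Alternatives were another pseudocount and filter, equal totals, no trend, a replicate block, prefix, age or sex, and each animal left out.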

Additional observations from a re-analysis of the deposited data

Results flagged for a closer look

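Of 60 sets of 4 animals, 8 held a value set apart from the other 3 by most of the range. Chance flags about 1 in 20 sets of independent, normally spread values. These sets come from the same 8 animals and are not independent, so their count cannot be held against that rate. In controls the value was that of control 2 for PSMB4 (695 FPKM), PSME2 (54.7), PSMF1 (83.9) and PSMG4 (409.7), and that of control 4 for PSME3 (139.9). Control 2 is the only control numbered 09 and the only female control. With norepinephrine the value was that of animal 2, the only infused animal numbered 10, for PSMB5 (37.2 FPKM) and PSMD7 (192), and that of animal 4 for PSMD4 (242).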

How the results depend on the processing

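The median over all members stayed within 1 SD between animals (0.18) of its value of 0.11 under the pseudocount, filter, trend, block, scaling, prefix and sex alternatives. So did that of the constitutive members (0.13, SD 0.19, and 0.15 without PSMC3IP). These SDs are larger than the medians, so staying within them does not fix the sign. Both medians were below 0 with equal totals (-0.040 and -0.018) and with the prefix (-0.034 and -0.031). With gestational age in the model they were -0.13 and -0.13, and 3 members had an unadjusted p under 0.05; the cause was not tested. The inducible median was -0.20 with the prefix in the model. Members at an unadjusted p under 0.05 were 1 with equal totals, with the prefix or with both, 3 in the 6 males, and 0 to 8 without 1 animal (8 without control 2). Genes called after adjustment were 1 under equal totals, the prefix, both together, or in males only, and 0 to 2 without 1 animal. Genes at an unadjusted p under 0.05 were 1552 with the prefix, 1524 with prefix and equal totals, 1619 in males, and 595 to 2201 without 1 animal. Without 1 animal the medians ran from 0.050 to 0.22 over all members, 0.070 to 0.25 over constitutive and -0.17 to 0.075 over inducible ones. Both ratios kept their sign in every alternative that gave a value (pseudocount, equal totals, block, prefix, males, each animal left out). They stayed without a call with the other pseudocount, equal totals and each animal left out. The block, prefix and male settings allow too few arrangements for a permutation p under 0.05, so they could give no call. The ratios were not run with gestational age. Members lower in animals numbered 10 went from 14 (10.4% of all genes) to 0 with equal totals (1.79%) or age (0.00755%). Without 1 animal they were at most 15, beside at most 11.1% of all genes. Without control 2 or norepinephrine animal 2 the number groups could be compared within 1 treatment group only, with 1 animal on 1 side. Members higher went from 0 (6.06% of all genes) to 5 with equal totals (31.0%) and were 0 without any 1 animal. With equal totals PSMA5 and PSMA7 turned to 0.018 and 0.017.

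Replicate numbers belong to different fetuses and did not pair them: deviations of same-numbered animals correlated at -0.38 to 0.093. With the number as a replicate block 646 genes had an unadjusted p under 0.05, 0 passed after adjustment, and 0 members had an unadjusted p under 0.05. Depth is unknown in absolute terms, so counting error of PSMA8, PSMC3IP and PSMB8, the lowest members, was not assessed. With 4 animals a group, the widest interval of a member was -0.69 to 0.49 (PSMB8).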
